A study of Mus musculus with 165 samples.

Results

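The cytochrome P450 enzymes of families 1 to 3 were examined in the ageing mouse liver. Members were the rows of the liver count table whose symbol began with Cyp1, Cyp2 or Cyp3 followed by a subfamily letter and a gene number, without Cyp2d9, Cyp2b13, Cyp2b9 and Cyp2a4 and without pseudogenes marked -ps. This gave 56 genes, all annotated as protein coding, in 16 subfamilies, out of 55471 identifiers in the table. A filter on low counts kept 15579 genes for testing, among them 40 of the 56 members. Each of these 40 had a median above the filter at all 5 ages, so none was tested only because of one age at which it was high.

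P450 enzymes are haem proteins of the endoplasmic reticulum that insert an oxygen atom into their substrates, using electrons passed on by cytochrome P450 reductase. In the liver, families 1 to 3 carry out much of the oxidation of drugs, pollutants and plant compounds, and several members also act on steroids, bile acids, retinoids and polyunsaturated fatty acids. Many are switched on by ligand-activated receptors (the aryl hydrocarbon receptor AhR, and the nuclear receptors CAR and PXR), and in the mouse a number of them differ between the sexes through the timing of growth hormone pulses.

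The mice were males of the inbred strain C57BL/6J/Ukj that had been kept for ageing alone, without any treatment or genetic change. Livers were sampled at 3 months (16 livers), 9 months (16), 15 months (16), 24 months (17) and 28 months (18), giving 83 libraries of polyadenylated RNA made with a stranded kit in 3 preparation batches (preps). Each prep held 4 to 7 livers of every age. Brains of the same mice were used only for a comparison between tissues. The deposited values were read counts per gene, with 5823039 counts in the shallowest liver library (15 months replicate 16) and 22791073 to 57490197 in the others. Levels are given as CPM, the count per 1e6 counts of the library after TMM scaling for library composition. Each liver came from another mouse, and p-values refer to the spread between mice. These are bulk tissue libraries, in which fewer cells of a type and less RNA per cell cannot be told apart.

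Between 3 and 28 months, 17 of the 40 tested members rose and 13 fell (edgeR quasi-likelihood test, called where the p adjusted by Benjamini-Hochberg over all tested genes was under 0.05). The 30 called members were 75% of those tested, beside 61.9% of all genes tested in the same comparison (31.9% higher, 30.0% lower). Changes of at least 2-fold were called for 10 members upward and 4 downward, 14 of 40, while 14.2% of all tested genes reached that size. The median log2 fold change was 0.12 over the tested members and 0.01 over all tested genes. The members therefore moved in both directions, with the larger changes among those that rose. Direction differed with the starting level. Among the 20 members with a mean of at least 100 CPM at 3 months, 6 rose and 8 fell. Among the 7 at 10 to 100 CPM, 3 rose and 3 fell, and among the 13 under 10 CPM, 8 rose and 2 fell. Within the preps taken one at a time, 11 members were higher and 10 lower in prep 1, 12 and 9 in prep 2, and 14 and 10 in prep 3, beside 39.9%, 15.6% and 42.2% of all genes tested in these fits. All but 2 of the 30 called members kept their direction in each prep. The exceptions were Cyp2d12, whose log2 fold change was -0.38 in prep 3, and Cyp3a44, at -0.07 in prep 1.

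**Figure D1:**
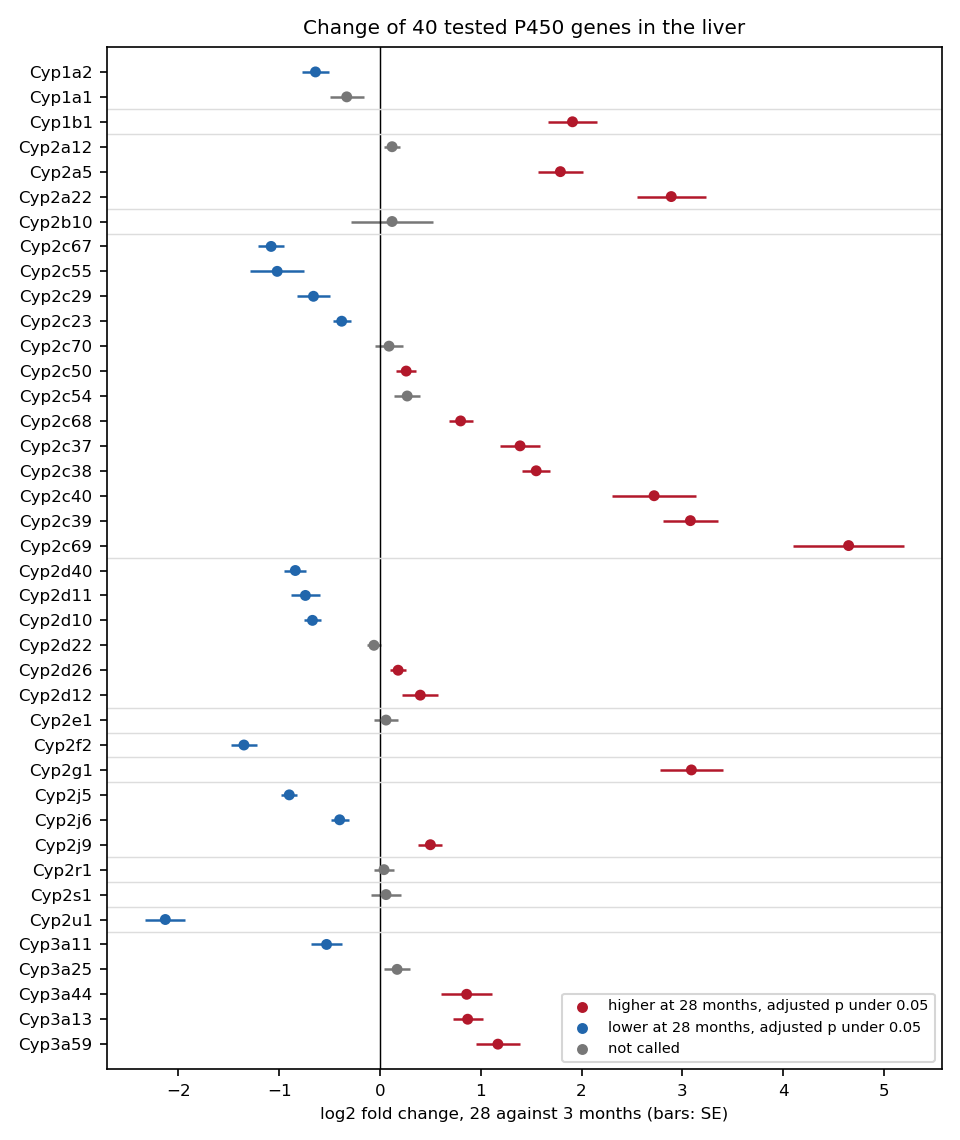
Log2 fold change between 28 and 3 months for the 40 tested P450 genes in the liver, grouped by subfamily, with bars for the standard error (16 livers at 3 months, 18 at 28 months). Red points were called higher (17 genes), blue points lower (13 genes) and grey points were not called (10 genes); the Cyp2c subfamily spans the widest range, from -1.08 for Cyp2c67 to 4.65 for Cyp2c69.

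The Cyp2c subfamily is the largest, with 15 members in one stretch of chromosome 19 apart from Cyp2c23, and 13 of them were tested. Of these, 7 rose, 4 fell and 2 were not called between 3 and 28 months, beside 31.9% of all genes higher and 30.0% lower. The widest contrast lay among 4 neighbouring genes on the minus strand, Cyp2c67 (chr19:39608842-39649051), Cyp2c68 (chr19:39688834-39741054), Cyp2c40 (chr19:39767071-39812814) and Cyp2c69 (chr19:39842814-39886799). Cyp2c40 is known for hydroxylating arachidonic acid and, with Cyp2c69, for higher expression in female than in male liver. Their promoter windows are printed because these adjacent and closely related genes moved in opposite directions. Each runs 5′ to 3′ on the minus strand from 250 bases before to 50 bases after the RefSeq start (GRCm38.p6), with every TATAAA in capitals.
Cyp2c67, chr19:39648993-39649292: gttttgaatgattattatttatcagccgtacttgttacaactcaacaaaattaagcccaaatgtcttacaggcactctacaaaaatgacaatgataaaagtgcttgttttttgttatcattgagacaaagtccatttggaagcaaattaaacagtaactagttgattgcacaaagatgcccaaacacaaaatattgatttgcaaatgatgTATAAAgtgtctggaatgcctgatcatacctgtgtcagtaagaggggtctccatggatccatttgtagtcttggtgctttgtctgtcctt
Cyp2c68, chr19:39741052-39741351: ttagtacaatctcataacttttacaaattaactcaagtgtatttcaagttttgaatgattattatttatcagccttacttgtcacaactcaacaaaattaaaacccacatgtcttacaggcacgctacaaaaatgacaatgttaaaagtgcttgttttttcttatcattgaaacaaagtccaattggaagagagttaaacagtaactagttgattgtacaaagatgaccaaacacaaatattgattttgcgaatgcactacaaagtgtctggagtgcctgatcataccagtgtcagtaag
Cyp2c40, chr19:39812765-39813064: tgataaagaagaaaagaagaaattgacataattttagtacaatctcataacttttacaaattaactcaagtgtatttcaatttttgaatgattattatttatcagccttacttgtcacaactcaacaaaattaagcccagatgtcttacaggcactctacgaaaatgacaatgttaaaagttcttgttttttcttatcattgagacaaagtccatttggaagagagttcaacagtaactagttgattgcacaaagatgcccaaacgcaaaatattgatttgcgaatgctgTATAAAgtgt
Cyp2c69, chr19:39886720-39887019: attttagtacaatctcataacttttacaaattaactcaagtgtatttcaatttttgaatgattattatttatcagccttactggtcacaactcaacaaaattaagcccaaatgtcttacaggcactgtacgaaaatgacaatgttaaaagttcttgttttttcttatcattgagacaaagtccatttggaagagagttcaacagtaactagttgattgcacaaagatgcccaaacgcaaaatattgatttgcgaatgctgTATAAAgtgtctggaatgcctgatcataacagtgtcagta

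Aligned base by base, the Cyp2c40 and Cyp2c69 windows were identical at 98.9% of the aligned bases, those of Cyp2c67 and Cyp2c69 at 92.8%, and those of Cyp2c67 and Cyp2c68 at 89.3%. The windows start at different points of the shared sequence because the annotated starts differ: the TATAAA lies before the annotated start of Cyp2c67 and after those of Cyp2c40 and Cyp2c69. The transcripts are also alike. Of all stretches of 100 bases in its exons, 35.4% of Cyp2c69, 34.4% of Cyp2c40, 23.7% of Cyp2c67 and 19.8% of Cyp2c68 occur unchanged in another gene, so the way reads matching several genes were counted bears on how counts are split among them.

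Cyp2c67 was the most abundant of these 4 genes in young livers, at 235 to 469 CPM at 3 months (median 295) and 91.5 to 324 CPM at 28 months (median 133). All 28-month livers but 1 lay below every 3-month liver. It fell by 1.08 on the log2 scale (SE 0.13, adjusted p 1.7e-11, edgeR), by between 0.76 and 1.41 in the 3 preps. Cyp2c68, the next gene along the chromosome, rose by 0.80 (SE 0.12, adjusted p 1.7e-08), from a median of 176 CPM (132 to 245) to 306 CPM (149 to 498), and 13 of 18 old livers exceeded every 3-month liver. With a score of clock genes as a term, described further on, it rose by 0.46 (adjusted p 0.00263), and it was not called in prep 2 alone.

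Cyp2c69 showed the largest fitted change of all tested members. Its level at 3 months was 0.504 to 2.67 CPM (median 1.12), and at 28 months it ran from 1.04 to 149 CPM (median 26.4). The log2 fold change was 4.65 (SE 0.55, adjusted p 3.3e-11; 3.56 in limma voom), and 16 of 18 old livers lay above all young livers. Cyp2c40 went from a median of 2.87 CPM (1.45 to 7.66) to 25.1 CPM (3.02 to 98.8), a log2 fold change of 2.72 (SE 0.42, adjusted p 4.9e-08) that ran from 2.01 to 3.53 over the preps. In both genes 28 months replicate 10 was the lowest old liver and 28 months replicate 15 the highest. Replicate 10 was also the old liver with the most Cyp2c67, at 324 CPM, and the least Cyp2c68 and Cyp2c39.

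Summed over these 4 genes, the level was 471 CPM in the median liver at 3 months (377 to 717) and 492 CPM at 28 months (380 to 888). The share of Cyp2c67 in this sum was 62.3% in the median liver at 3 months (55.8 to 70.8%), 53.0% at 24 months (25.5 to 66.9%) and 28.2% at 28 months (15.7 to 67.9%). The share of Cyp2c69 went from 0.242% to 4.87%. The summed counts of the group thus spanned a similar range in young and old livers while its make-up differed.

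**Figure D2:**
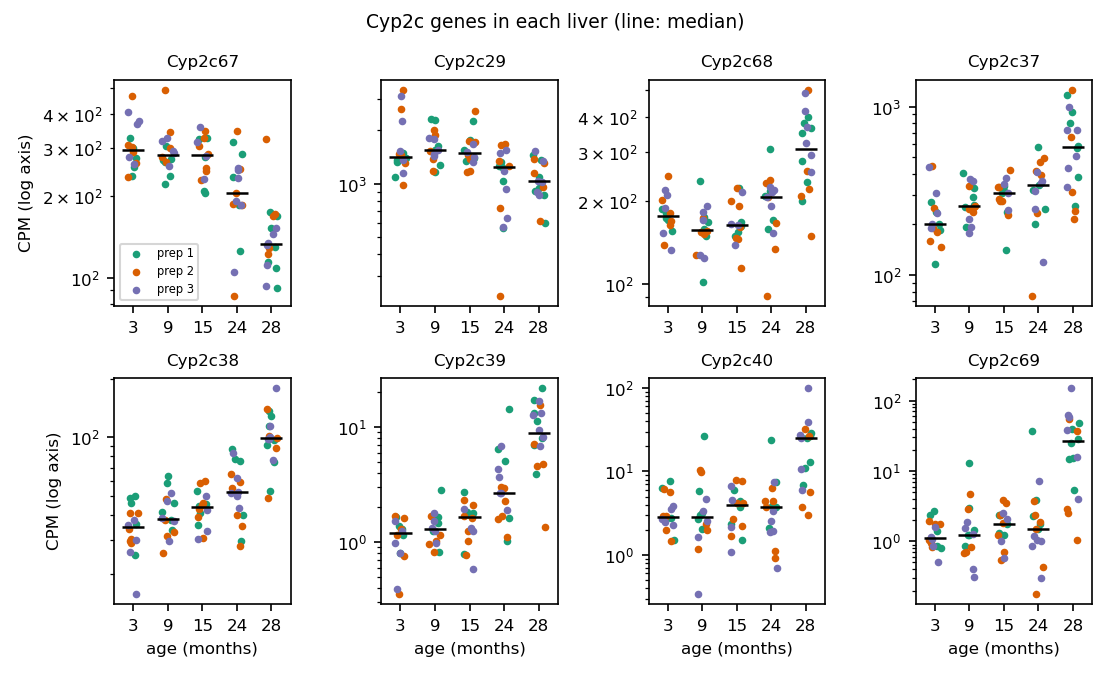
Level of 8 Cyp2c genes in each of the 83 livers at 3, 9, 15, 24 and 28 months, in CPM on a log axis; points are livers coloured by prep and lines are medians. Cyp2c67 and Cyp2c29 are lowest in old livers, the other 6 are highest at 28 months, and 1 liver at 24 months stands out at 36.4 CPM for Cyp2c69.

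Other Cyp2c members that rose were Cyp2c39, Cyp2c38, Cyp2c37 and Cyp2c50. Cyp2c39, a retinoic acid hydroxylase, went from 0.355 to 1.70 CPM at 3 months (median 1.19) to 1.35 to 21.7 CPM at 28 months (median 8.85), a log2 fold change of 3.08 (SE 0.27, adjusted p 3.5e-16). With a score of clock genes as a term, described further on, the change was 2.30. All old livers but replicate 10 exceeded every young liver. Cyp2c38, an arachidonic acid epoxygenase, rose by 1.55 (SE 0.14, adjusted p 2.5e-15), from a median of 34.7 CPM (15.8 to 50.1) to 99.0 CPM (48.7 to 178), and here too 17 of 18 old livers were above all young ones. Cyp2c37, another arachidonic acid oxidase, rose by 1.39 (SE 0.20, adjusted p 1.0e-08, and 0.83 with the clock score), from a median of 201 CPM (117 to 443) to 578 CPM (214 to 1248). Its groups overlapped more, with 11 of 18 old livers above all young ones. For Cyp2c50 the change was 0.26 (SE 0.10, adjusted p 0.0244), and without 28 months replicate 5 it was not called.

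Among the Cyp2c genes that fell, Cyp2c29, an epoxygenase induced through CAR, was the most abundant. It ranged from 978 to 3372 CPM at 3 months (median 1424) and from 602 to 1520 CPM at 28 months (median 1028), a log2 fold change of -0.66 (SE 0.16, adjusted p 3.1e-04) with 8 of 18 old livers below every young one. In preps 1 and 2 alone Cyp2c29 was not called. Cyp2c55, which also responds to CAR and PXR, fell by 1.02 (SE 0.27, adjusted p 8.6e-04), from a median of 8.75 CPM (2.27 to 17.9) to 3.35 CPM (1.2 to 14.1). It was not called with the clock score (-0.63, adjusted p 0.0711) or in preps 2 and 3 alone. The groups of Cyp2c55 overlapped widely. Cyp2c23, an epoxygenase also known in the kidney, fell by 0.38 (SE 0.09, adjusted p 2.2e-04). Cyp2c70, which makes the muricholic acids of mouse bile, had a log2 fold change of 0.09 (SE 0.14, adjusted p 0.601), and Cyp2c54 one of 0.27 (SE 0.13, adjusted p 0.0785). Neither was called by edgeR, and limma voom with quality weights called both.

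Outside Cyp2c, the deepest fall was that of Cyp2u1 (chr3:131288441-131303227), which hydroxylates long-chain fatty acids. Its level was 21.7 to 112 CPM at 3 months (median 35.0) and 5.09 to 16.6 CPM at 28 months (median 9.04), so the groups did not overlap. The log2 fold change was -2.13 (SE 0.20, adjusted p 3.7e-15), and -2.85 to -1.63 in the 3 preps. The 4 young livers with the most Cyp2u1 were replicates 10, 13, 15 and 16, at 58.3 to 112 CPM, whereas no other 3-month liver exceeded 42.7 CPM. Of all genes tested, 1.35% had groups that did not overlap in this comparison, and of the 40 tested members 4 did: Cyp2u1, Cyp2f2, Cyp2j5 and Cyp2g1.

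Cyp2f2 (chr7:27119909-27133660), which activates naphthalene and marks periportal hepatocytes, was at 747 to 1237 CPM at 3 months (median 979) and 110 to 604 CPM at 28 months (median 379). It fell by 1.35 (SE 0.13, adjusted p 4.8e-15), with a narrow range over the preps, -1.44 to -1.26. Of 6 other periportal markers 3 were higher at 28 months and none lower, beside 31.9% and 30.0% of all genes. Their summed level was 3436 to 6966 CPM at 3 months and 2390 to 11350 CPM at 28 months, and their part in the Cyp2f2 result was not tested. Cyp2j5 (chr4:96628773-96664154), an arachidonic acid epoxygenase, went from 489 to 779 CPM (median 631) to 187 to 454 CPM (median 327), a log2 fold change of -0.90 (SE 0.08, adjusted p 4.9e-16). Its relative Cyp2j6 fell by 0.40 (SE 0.09, adjusted p 8.5e-05), while Cyp2j9 rose by 0.50 (SE 0.12, adjusted p 1.2e-04), from a median of 11.2 CPM to 16.4 CPM. Cyp2j9 was not called in preps 1 and 2 alone, nor Cyp2j6 in prep 3 alone.

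In the Cyp2d subfamily, relatives of the human drug-metabolising enzyme CYP2D6, 3 of 6 tested members fell and 2 were called higher, beside 30.0% and 31.9% of all genes. Cyp2d40 fell by 0.84 (SE 0.11, adjusted p 9.6e-10), Cyp2d11 by 0.74 (SE 0.14, adjusted p 3.7e-06) and Cyp2d10 by 0.67 (SE 0.08, adjusted p 9.7e-12). Cyp2d10 was the abundant one of these, at 481 to 952 CPM at 3 months and 322 to 581 CPM at 28 months. Cyp2d10 and Cyp2d11 share 11.7% and 12.2% of their 100-base stretches with another gene. The increases were small: 0.18 for Cyp2d26 (SE 0.08, adjusted p 0.0490) and 0.40 for Cyp2d12 (SE 0.18, adjusted p 0.0396). Leaving out single livers ended the call in 21 of 34 fits for Cyp2d26 and in 12 of 34 for Cyp2d12. Cyp2d22 had a log2 fold change of -0.06 (SE 0.07, adjusted p 0.462).

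Cyp1a2, the AhR target that oxidises caffeine and aromatic amines, ranged from 303 to 747 CPM at 3 months (median 602) and from 174 to 557 CPM at 28 months (median 360). It fell by 0.64 (SE 0.13, adjusted p 1.5e-05), with 5 of 18 old livers below every young liver. Cyp1a1, the most inducible AhR target, was low, at a median of 1.57 CPM at 3 months and 1.16 CPM at 28 months, with a log2 fold change of -0.33 (SE 0.17, adjusted p 0.0910). It was called with the replicate number as a block, with the compared ages alone and with the clock score. Cyp1b1, a further AhR target found mainly outside hepatocytes, rose by 1.91 (SE 0.24, adjusted p 1.5e-10), from a median of 0.720 CPM (0.584 to 2.1) to 2.36 CPM (1.13 to 8.22). Only 10 of 18 old livers lay above all young ones. Of 5 stellate cell markers 4 were higher at 28 months, beside 31.9% of all genes, and Lrat was not called (0.20, adjusted p 0.220). The sum of the 5 ran from 245 to 318 CPM at 3 months and from 353 to 525 CPM at 28 months, and none was at 0. Their part in the Cyp1b1 result was not tested.

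Cyp3a11, the counterpart of the main human drug-metabolising enzyme CYP3A4, was among the most abundant members, at 1418 to 5166 CPM at 3 months (median 3459) and 850.0 to 3954 CPM at 28 months (median 2267). It fell by 0.53 (SE 0.15, adjusted p 0.00214), with overlapping groups, and was not called in preps 2 and 3 alone. The other tested Cyp3a genes that were called rose. Cyp3a13 went from a median of 156 CPM (124 to 426) to 292 CPM (171 to 592), a log2 fold change of 0.87 (SE 0.15, adjusted p 7.0e-07), although only 4 old livers exceeded every young liver because 3 months replicate 15 was itself at 426 CPM. Cyp3a59 rose by 1.17 (SE 0.22, adjusted p 6.2e-06), from a median of 35.5 CPM to 81.0 CPM, and Cyp3a44, a female-predominant form, by 0.86 (SE 0.25, adjusted p 0.00242). With the clock score Cyp3a59 was at 0.64 (adjusted p 0.0325), and it was not called in preps 1 and 2 alone. Cyp3a13 and Cyp3a44 were not called in prep 1 alone. Cyp3a25 had a log2 fold change of 0.17 (SE 0.13, adjusted p 0.257).

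The Cyp2a and Cyp2g genes lie together on chromosome 7. Cyp2a5, which hydroxylates coumarin and nicotine, was at 79.2 to 350 CPM at 3 months (median 173) and 189 to 1651 CPM at 28 months (median 530). It rose by 1.79 (SE 0.22, adjusted p 1.8e-10; 0.85 with the clock score described further on), and 14 of 18 old livers were above all young ones. Of its 100-base stretches 12.1% occur in another gene, and 8.08% in Cyp2a4, so some of its reads may be divided with that gene. Cyp2a22 (chr7:26931631-26939384) rose by 2.89 (SE 0.34, adjusted p 1.9e-11; 1.87 with the clock score), from a median of 1.48 CPM (0.779 to 6.06) to 10.2 CPM (2.79 to 40.9). Cyp2g1 (chr7:26808892-26821205), best known from the olfactory mucosa, rose by 3.09 (SE 0.31, adjusted p 8.7e-14; 2.21 with the clock score), from 0 to 2.20 CPM (median 1.09) to 2.50 to 17.4 CPM (median 8.08). For Cyp2g1 each old liver was above each young liver, and the 3-month liver at 0 was replicate 13.

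**Figure D3:**
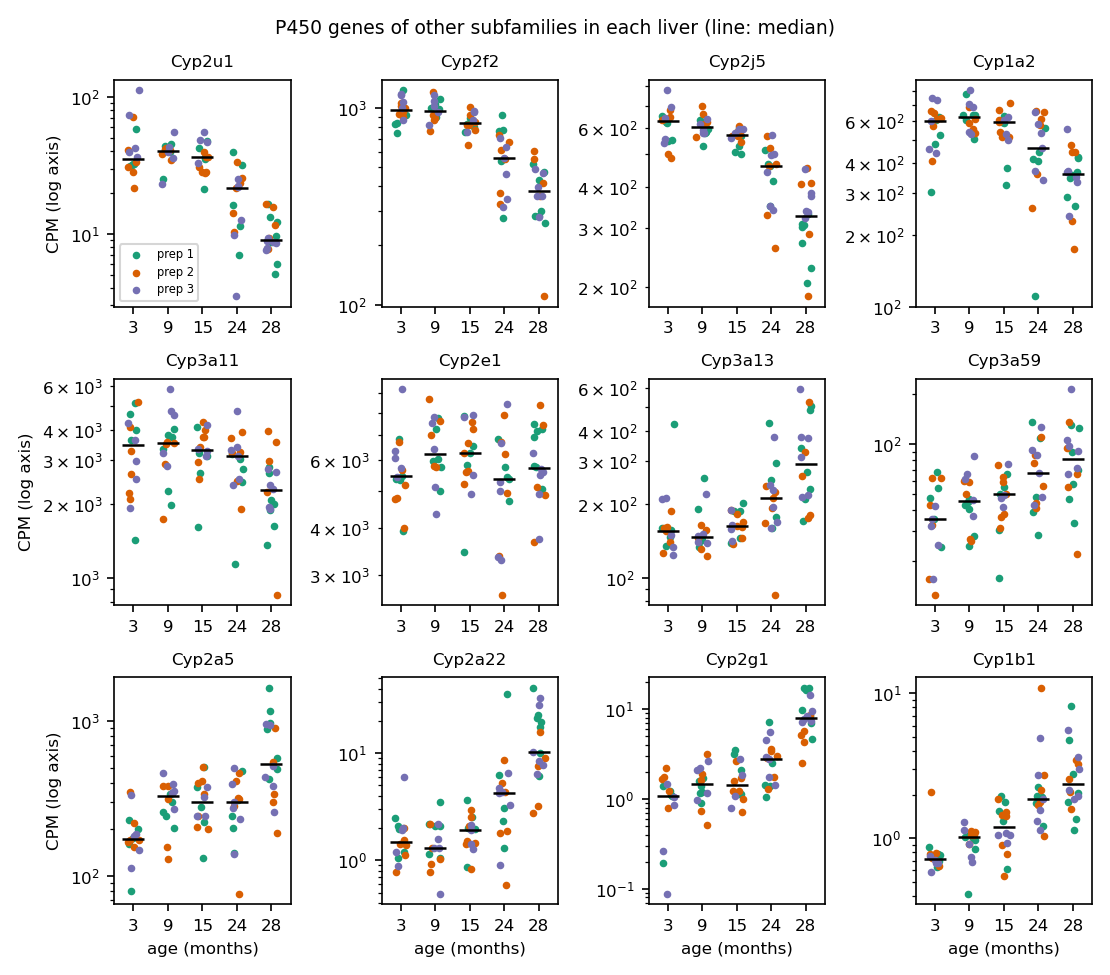
Level of 12 P450 genes outside Cyp2c in each of the 83 livers by age in months, in CPM on a log axis; points are livers coloured by prep, lines are medians, and the 3-month liver with no Cyp2g1 count is not drawn. Cyp2u1, Cyp2f2 and Cyp2j5 lie lowest at 28 months, Cyp2a5, Cyp2a22 and Cyp2g1 highest, and Cyp2e1 overlaps at every age.

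Cyp2e1, which oxidises ethanol and paracetamol, had the highest level per kilobase of exon of all members, with a mean of 2630 CPM per kilobase at 3 months and 2743 at 28 months. Its level was 3907 to 9234 CPM at 3 months (median 5448) and 3655 to 8366 CPM at 28 months (median 5734). The log2 fold change was 0.06 (SE 0.12, adjusted p 0.684). With the clock score Cyp2e1 was called and the sign turned negative, and in prep 3 alone the change was -0.32, not called. Cyp2a12, a bile acid hydroxylase, had 0.12 (SE 0.08, adjusted p 0.218). Cyp2r1, which 25-hydroxylates vitamin D, had 0.04 (SE 0.10, adjusted p 0.764), and Cyp2s1 had 0.06 (SE 0.15, adjusted p 0.769). Cyp2b10, the classical CAR target, varied widely among mice of one age, from 0.421 to 27 CPM at 3 months and from 1.56 to 22.5 CPM at 28 months. Its log2 fold change of 0.12 had an SE of 0.41 (adjusted p 0.809), so a change of moderate size was not detectable. The 3-month livers with the least Cyp2b10, at 0.421, 0.810 and 1.10 CPM, were replicates 15, 16 and 13, which are among the young livers with the most Cyp2u1.

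The 16 members that were not tested reached at most 1.75 CPM in any liver, and 13 of them had fewer than 100 counts over all 83 livers, including Cyp2b19, Cyp2j12 and Cyp2j7, which had none. Cyp3a16 and Cyp3a41a, forms of female and newborn mouse liver, were above the floor of 3 counts in 8 and 10 of 18 livers at 28 months. At 3, 9 and 15 months no liver was above the floor for either gene, and at 24 months 1 liver was for Cyp3a16 and 0 of 17 for Cyp3a41a. Cyp3a41b was above it in 1 liver at 28 months. Cyp3a41a and Cyp3a41b share 90.8% and 88.2% of their 100-base stretches with other genes, mostly each other, so reads from either cannot be assigned with certainty. The remaining untested members, Cyp2b23, Cyp2c65, Cyp2c66, Cyp2d34, Cyp2j8, Cyp2j11, Cyp2j13, Cyp2t4, Cyp2w1 and Cyp3a57, reached at most 0.487 CPM in any liver.

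The changes came late in the members, as they did over all genes tested. Against 3 months, 7.5% of tested members were called at 15 months and 50% at 24 months, beside 7.32% and 49.0% of all genes. No member was called between 3 and 9 months (5 had an unadjusted p under 0.05 by edgeR, DESeq2 called 1 and limma voom 2), beside 4.69% of all genes (1.53% higher, 3.16% lower). Between 3 and 15 months 3 of 40 were called, beside 7.32% of all genes (3.06% higher, 4.26% lower): Cyp2a5 was higher by 0.72, Cyp2d10 fell by 0.24 and Cyp2d11 fell by 0.43. These rested on few livers, since the count ranged from 0 to 4 when single livers were left out, with 0 called without 3 months replicate 10, 13, 15 or 16 or without 15 months replicate 7 or 13. Between 9 and 15 months none was called by edgeR, DESeq2 or limma voom and 0 had an unadjusted p under 0.05 by edgeR, with 0.0514% of all genes called.

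Between 15 and 24 months 6 members rose and 8 fell, 35% of those tested, beside 36.0% of all genes (21.6% higher, 14.4% lower). The largest increases were those of Cyp2a22 (1.42, SE 0.33, adjusted p 5.2e-04), Cyp2c39 (1.17, SE 0.26, adjusted p 2.8e-04) and Cyp1b1 (1.02, SE 0.23, adjusted p 4.1e-04). The largest decreases were those of Cyp2u1 (-0.94, SE 0.19, adjusted p 1.2e-04), Cyp2f2 (-0.59, SE 0.13, adjusted p 1.9e-04) and Cyp2c29 (-0.54, SE 0.16, adjusted p 0.00717). All 14 kept their direction in each prep, but single preps called 0, 2 and 3 members, beside 0.0193%, 16.7% and 8.09% of all genes. At 24 months against 3 months, 11 members were higher and 9 lower, 20 of 40, beside 49.0% of all genes.

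Between 24 and 28 months 12 members rose and 8 fell, 50% of those tested, while 15.3% of all genes were called (6.18% higher, 9.13% lower). With a score of clock genes as a term, described further on, 4 members and 2.30% of all genes were called, and Cyp2g1, Cyp2c55, Cyp2u1 and Cyp2f2 were not among the 4. The largest increases were Cyp2c69 (3.28, SE 0.50, adjusted p 3.0e-06), Cyp2c40 (2.37, SE 0.40, adjusted p 1.4e-05) and Cyp2g1 (1.60, SE 0.28, adjusted p 2.2e-05), and the largest decreases Cyp2c55 (-1.18, SE 0.27, adjusted p 0.00106), Cyp2u1 (-0.93, SE 0.19, adjusted p 2.8e-04) and Cyp2f2 (-0.55, SE 0.12, adjusted p 8.9e-04). Without 24 months replicate 15 the change of Cyp2c69 was 4.07. All 20 kept their direction in each prep, with 10 called in prep 1, 0 in prep 2 and 7 in prep 3, beside 16.2%, 0% and 1.24% of all genes.

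**Figure D4:**
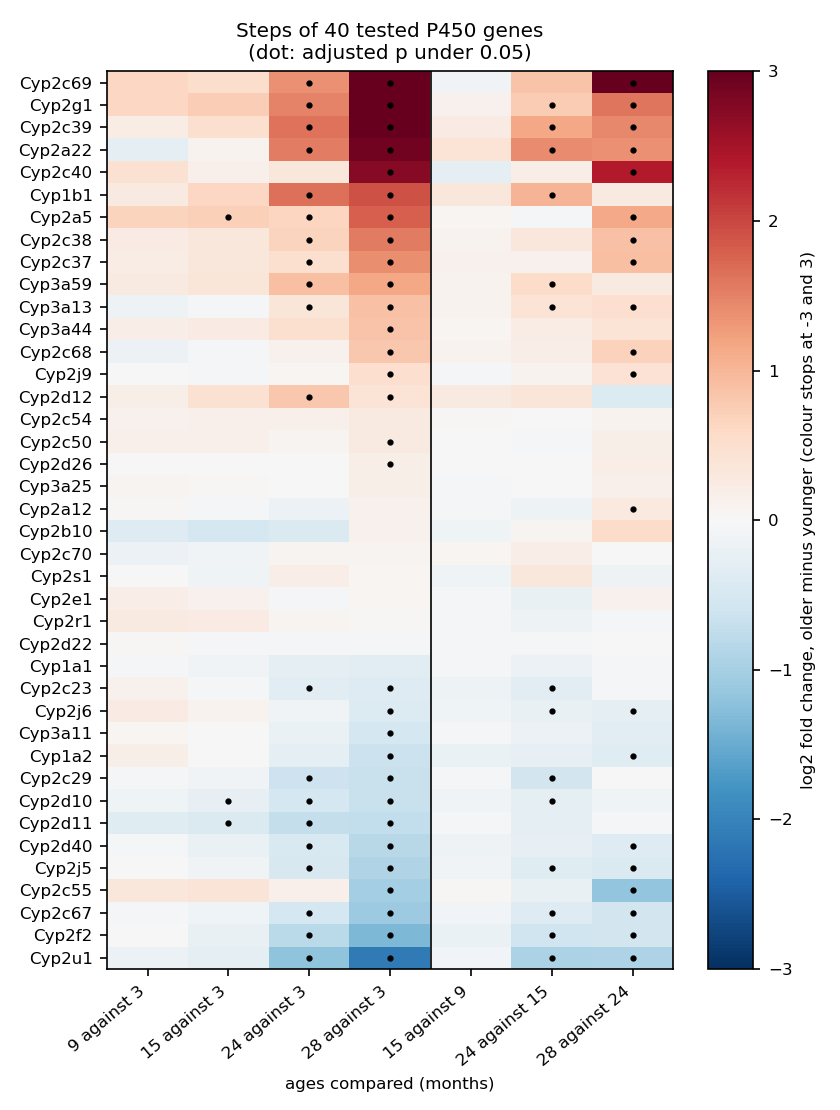
Log2 fold change of the 40 tested P450 genes in 7 comparisons of ages, with 3 months as reference on the left and between later ages on the right; dots mark adjusted p under 0.05 and the colour scale stops at -3 and 3. Dots are absent at 9 against 3 and 15 against 9 months, and number 14 at 24 against 15 and 20 at 28 against 24 months.

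Over all 5 ages together, 30 members were called as varying with age, beside 71.5% of all genes. The members did not share one course. Cyp1b1, Cyp2c29 and Cyp2c23 had changed by 24 months, with differences of 0.27, -0.02 and -0.03 between 24 and 28 months that were not called, although Cyp1b1 was called at that step in limma voom and without the 2 livers least like the rest. Cyp2c40, Cyp2c68 and Cyp2j9 rose at the last step, with differences between 15 and 24 months of 0.19, 0.19 and 0.10 that were not called, and Cyp2c55 fell there, with -0.22 before. Of these 4, Cyp2c40 alone was still called with the clock score (Cyp2c68 was at 0.35, adjusted p 0.120, Cyp2j9 at 0.28, adjusted p 0.217, and Cyp2c55 at -0.80, adjusted p 0.114), and limma voom also called Cyp2c68 between 15 and 24 months. Cyp2u1, Cyp2f2, Cyp2c67 and Cyp2j5 fell at both steps, and Cyp2a22, Cyp2c39, Cyp2g1 and Cyp3a13 rose at both. With the clock score, of these 8 only Cyp2j5 was still called at the later step (Cyp2a22 was at 0.41, adjusted p 0.518, and Cyp2g1 at 0.74, adjusted p 0.138). At the earlier step, leaving out single livers ended the call of Cyp2g1 in 12 of 33 fits and that of Cyp3a13 in 2 (24 months replicates 5 and 6), and Cyp3a13 was not called with the replicate number as a block. Without the 2 livers least like the rest, Cyp2g1 was not called there. At the later step Cyp3a13 and Cyp2j9 were not called with the compared ages alone. The difference between the steps was not tested, and they share the 24-month livers.

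Together the 56 members took 1.84% of all liver counts in the median library at 3 months (1.54 to 2.27%), 1.95% at 9, 1.92% at 15, 1.74% at 24 (0.996 to 2.21%) and 1.9% at 28 months (1.25 to 2.34%). These ranges overlap at all ages. By mean CPM per kilobase, the leading members at 3 months were Cyp2e1, Cyp3a11, Cyp2c29 and Cyp2f2, and at 28 months Cyp2e1, Cyp2d26, Cyp3a11 and Cyp3a25. Cyp2f2 went from rank 4 to rank 11 and Cyp2c67 from 12 to 19, while Cyp2c37 went from 14 to 6 and Cyp2a5 from 18 to 7. 

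Individual livers accounted for several extreme values. At 24 months replicate 15 was the highest liver for Cyp2c69 (36.4 CPM, median 1.49), Cyp2c40 (24.1 CPM, median 3.74), Cyp2c39 (14.3 CPM, median 2.68) and Cyp2a22 (36.0 CPM, median 4.21). Without it, Cyp2c69 was not called between 3 and 24 months (0.54, adjusted p 0.348, instead of 1.38, adjusted p 0.0209). Replicate 8 was the lowest liver at 24 months for Cyp2c29 (233 CPM), Cyp2c37 (75.7 CPM) and Cyp2e1 (2661 CPM). The 2 livers least like the rest over all genes were 24 months replicate 13 and 28 months replicate 9; without them 30 members were called between 3 and 28 months (61.5% of all genes), 11 for the step from 15 to 24 months (31.8%) and 21 for that from 24 to 28 months (19%).

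Over the 83 livers, after age and prep were taken out, the closest pairs of members were Cyp2c50 with Cyp2c54 (Pearson r 0.95), Cyp2c40 with Cyp2c69 (0.93) and Cyp3a25 with Cyp3a59 (0.86). Among all 780 pairs the median r was 0.17 and the lowest -0.59. Members of the leading pairs are alike in sequence: Cyp3a25 and Cyp3a59 share 6.79% and 7.39% of their 100-base stretches, Cyp2c50 and Cyp2c54 3.46% and 6.16%. All points share libraries and depth, and these values describe the livers only.

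Several of these genes are known to vary over the day, and the time of sampling is not given in the sources used here. A clock score was the mean standardised level of 13 genes of the clock and its output. They were Dbp, Tef, Hlf, Per1, Per2, Per3, Cry1, Nr1d1, Nr1d2, Ciart, Arntl, Clock and Npas2, with the sign of Arntl, Clock and Npas2 turned. The score had a median of -0.49 at 3 months (-0.70 to 0.75), -0.22 at 9, -0.23 at 15, -0.35 at 24 (-0.94 to 0.89) and 0.72 at 28 months (-0.62 to 2.17). Sampling time, ageing of the clock and age itself cannot be told apart here. After age and prep were taken out, r with this score was 0.58 for Cyp2a5, 0.52 for Cyp2c39, 0.50 for Cyp2g1 and 0.49 for Cyp2e1, and -0.15 for Cyp2u1 and -0.05 for Cyp2c67 (n = 83, description only).

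With the clock score as a term, 30 members were still called between 3 and 28 months, 27 of them the same genes, beside 56.2% of all genes. Cyp2a5 then rose by 0.85 (SE 0.21, adjusted p 3.1e-04), Cyp2c39 by 2.30 (SE 0.28, adjusted p 2.7e-10) and Cyp2c69 by 3.99 (SE 0.62, adjusted p 9.7e-08). Cyp2u1 had -1.91 (SE 0.24, adjusted p 6.1e-10), Cyp2f2 -1.17 (SE 0.15, adjusted p 7.6e-10) and Cyp2j5 -0.85 (SE 0.09, adjusted p 1.2e-11). Cyp2c55, Cyp2c50 and Cyp2d26 were no longer called, while Cyp1a1, Cyp2d22 and Cyp2e1 were called. Between 24 and 28 months the same term left 4 of the 20 calls, Cyp2c69 (2.62, adjusted p 0.00809), Cyp2c40 (1.87, adjusted p 0.0211), Cyp2c38 (0.57, adjusted p 0.0309) and Cyp2j5 (-0.38, adjusted p 0.0155), beside 2.30% of all genes. Cyp2a5, at 1.13 without the term, was at 0.20 (SE 0.20, adjusted p 0.594).

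The promoter of Cyp2a5 is printed because this gene had the highest r with the clock score among the tested members and is a known target of the clock output factor DBP. The window of 250 bases before to 50 after the RefSeq start (GRCm38.p6, plus strand) held 1 match to the D-box TTATGNAA that such factors bind, in capitals and read on the opposite strand.
Cyp2a5, chr7:26835089-26835388: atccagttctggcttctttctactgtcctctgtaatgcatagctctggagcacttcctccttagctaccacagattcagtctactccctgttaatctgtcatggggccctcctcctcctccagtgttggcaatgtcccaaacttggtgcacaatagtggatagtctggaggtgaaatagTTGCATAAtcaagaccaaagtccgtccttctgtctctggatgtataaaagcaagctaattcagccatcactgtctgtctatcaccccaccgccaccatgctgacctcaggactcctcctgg

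Windows were found for 48 of the 56 members, 51 promoters in all, and motifs were searched on both strands. The D-box was in 4 of the 51 (7.84%), those of Cyp2a5, Cyp2b10, Cyp2b19 and Cyp2b23, and in 3.39% of all 32841 promoters of the same length. Cyp2b10, tested as well, had an r of 0.01 with the clock score. The windows of Cyp2c39 and Cyp2e1, with r of 0.52 and 0.49, held no D-box. The part of the D-box in the Cyp2a5 result was not tested. TATAAA was in 51% of the member promoters and in 13.6% of all. The AhR core GCGTG was in 19.6%, among them Cyp1a1 and Cyp1b1, and in 32.4% of all, and the nuclear receptor motif AGGTCA in 31.4% and 16.3%. The STAT5 site TTCNNNGAA was in 3.92% and in 8.3% of all. These matches describe the letters of the windows only.

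Members were also grouped by known regulation, to be read beside the 61.9% of all genes called and their median of 0.01. Of the 3 AhR targets, Cyp1b1 rose, Cyp1a2 fell and Cyp1a1 was not called between 3 and 28 months. Of 8 targets of CAR and PXR, 3 rose (Cyp2a5, Cyp2c37, Cyp2c50), 3 fell (Cyp2c29, Cyp2c55, Cyp3a11) and 2 were not called (Cyp2b10, Cyp2c54), with a median of 0.19. The calls of Cyp2c50 and Cyp2c55 were lost with the clock score. Of 7 tested fatty acid epoxygenases 3 rose (Cyp2c38, Cyp2c39, Cyp2j9) and 4 fell (Cyp2c23, Cyp2c29, Cyp2j5, Cyp2j6). Of 6 female-predominant members 3 were tested, Cyp2c40, Cyp2c69 and Cyp3a44, and these rose. Cyp3a44 was at -0.07 in prep 1. Cyp2c40 and Cyp2c69 share 22.1% and 29.6% of their 100-base stretches with each other, so their counts are not fully separate. The list was chosen with earlier results known, and the other 3 are the Cyp3a16 and Cyp3a41 genes.

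Genes that work with P450 enzymes were counted in the same comparison, in which 31.9% of all genes were higher and 30.0% lower. Among 5 electron donors and partners 1 rose and 3 fell. Por, the reductase that supplies electrons to all members, went from a median of 181 CPM (146 to 275) to 405 CPM (159 to 897), a log2 fold change of 1.29 (SE 0.17, adjusted p 1.3e-09) that was 0.47 with the clock score. Cyb5r3, the cytochrome b5 reductase, fell by 0.73 (SE 0.10, adjusted p 1.5e-09) and Cyb5b, a cytochrome b5, by 0.60 (SE 0.09, adjusted p 1.2e-08).

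Of 12 genes of haem synthesis and breakdown 3 rose and 7 fell, beside 31.9% and 30.0% of all genes. The falls included Uros (-0.74, SE 0.08, adjusted p 1.6e-12), which acts in haem synthesis. The increases included Hmox1, which degrades haem (1.71, SE 0.22, adjusted p 2.5e-10), and Blvra, which acts on the product (0.32, SE 0.07, adjusted p 1.3e-04). In prep 2 alone Hmox1 was at 0.90 and Blvra at -0.08. Macrophages also express Hmox1, and the 5 Kupffer cell markers were all higher at 28 months, with a sum of 255 to 888 CPM at 3 months and 401 to 3091 CPM at 28 months; their part was not tested.

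Of 10 receptors and partners 2 rose and 2 fell, 4 called in all beside 61.9% of all genes. Nr1i3, which encodes CAR, rose by 0.61 (SE 0.16, adjusted p 6.2e-04) and was not called with the clock score as a term (0.06, adjusted p 0.784). Ahr rose by 0.41 (SE 0.13, adjusted p 0.00453; 0.27 and adjusted p 0.119 with the clock score). Nr1h4, the bile acid receptor, had -0.30 (SE 0.08, adjusted p 0.00105) and Rxrb -0.20 (SE 0.05, adjusted p 5.3e-04). Of 11 liver transcription factors 2 rose and 6 fell, beside 31.9% and 30.0% of all genes. Cux2, a repressor found in female liver, went from 0.252 to 0.620 CPM at 3 months to 0.293 to 105 CPM at 28 months (6.18, SE 0.57, adjusted p 2.7e-15; 4.27 with the clock score). Bcl6, a repressor more abundant in male liver, fell by 2.00 (SE 0.39, adjusted p 9.3e-06), with -3.0 in prep 1 and -0.84, not called, in prep 2. Onecut1, a hepatocyte regulator, fell by 1.56 (SE 0.42, adjusted p 9.1e-04), although limma voom with quality weights gave -0.32 for Onecut1 (adjusted p 0.618). Cebpb rose by 0.56 (SE 0.21, adjusted p 0.0163), and was not called without 28 months replicate 17 (0.44, adjusted p 0.0581) or with the clock score (0.31, adjusted p 0.288).

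Targets of the same receptors outside the P450 genes were also counted between 3 and 28 months, beside 31.9% of all genes higher and 30.0% lower. Of 4 tested AhR targets 3 rose, among them Ahrr, the AhR repressor (1.46, SE 0.26, adjusted p 1.4e-06), and Nqo1, a quinone reductase (0.98, SE 0.12, adjusted p 4.7e-11). Of 9 CAR and PXR targets 5 rose, led by Akr1b7 (3.28, SE 0.38, adjusted p 1.1e-11) and the transporter gene Abcb1a (1.46, SE 0.16, adjusted p 4.1e-12), and 2 fell, Ces2a (-0.87, SE 0.14, adjusted p 7.6e-08) and Aldh1a1 (-0.69, SE 0.14, adjusted p 1.1e-05). Of 27 tested P450 genes of other families 5 rose, 15 fell and 7 were not called, with a median of -0.49, beside 0.01 over all genes. The deepest falls were those of the male-predominant fatty acid hydroxylases Cyp4a12a (-4.61, SE 0.54, adjusted p 2.6e-11) and Cyp4a12b (-4.27, SE 0.49, adjusted p 8.8e-12), at -6.23 and -6.20 in limma voom, and the largest increases those of Cyp4f18 (2.37, SE 0.36, adjusted p 4.6e-08) and Cyp17a1 (1.96, SE 0.37, adjusted p 5.1e-06). Over the other settings Cyp4a12a ran from -6.23 to -2.94 and Cyp4a12b from -6.20 to -2.78. Cyp4f18 ran from 1.30 to 2.77 and Cyp17a1 from 1.07 to 3.04, prep 2 alone called neither of these, and prep 1 alone did not call Cyp17a1.

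Hepatocyte markers were abundant in all livers: the 4 tested summed to 65612 to 106236 CPM at 3 months and 19821 to 111495 CPM at 28 months, with 2 lower and none higher. Pericentral markers, from the zone richest in P450 enzymes, had 3 of 6 higher and none lower. These marker counts stand beside 31.9% of all genes higher and 30.0% lower. Immune cell markers moved with age: all 5 B lineage, all 5 T lineage and all 3 tested neutrophil genes were higher at 28 months, and the summed neutrophil level went from 1.46 to 15.1 CPM to 5.40 to 453 CPM. Their part in the members' results was not tested.

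In the brain 10 members passed the count filter. Between 3 and 28 months 5 rose and none fell by edgeR, beside 28.3% of all genes (16.3% higher, 12.0% lower). Cyp2d22 was the most abundant of these in CPM, at 33.2 to 55.4 CPM at 3 months and 40.7 to 73.5 CPM at 28 months, and rose by 0.48 (SE 0.06, adjusted p 1.0e-10). Cyp3a13 rose by 1.00 (SE 0.18, adjusted p 6.4e-06), Cyp2j12, without a count in the liver, by 0.50 (SE 0.16, adjusted p 0.0123), and Cyp2j6 by 0.18 (SE 0.05, adjusted p 0.00696). Cyp2e1 rose by 1.67 (SE 0.29, adjusted p 3.9e-06), from 0.105 to 0.475 CPM to 0.240 to 2.64 CPM, far below the liver. Of 4 hepatocyte markers in the same brains, Alb had a median of 0.0271 CPM at 3 months and 0.0396 CPM at 28 months, with 18.5 CPM in 1 old brain, and Serpina3k was at most 0.904 CPM. Apoa1 rose by 1.60 (SE 0.31, adjusted p 3.3e-05), from a median of 0.292 CPM to 0.513 CPM. Ttr, which the choroid plexus of the brain also makes, had medians of 145 CPM and 79.0 CPM (-0.42, SE 0.85, adjusted p 0.739). Their part in the Cyp2e1 result was not tested.

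For the 9 members tested in both tissues, a term for the difference between liver and brain in the change from 3 to 28 months was called for 6, beside 49.2% of all genes tested in both. Cyp2u1 differed most (liver minus brain -2.13, SE 0.21, adjusted p 3.4e-16), with -2.13 in the liver and 0.05 in the brain (SE 0.08, adjusted p 0.645). Cyp1b1 differed by 1.58 (SE 0.28, adjusted p 9.1e-07), with 1.91 in the liver and 0.36 in the brain. Cyp3a13 rose in both, and the difference was -0.10 (SE 0.22, adjusted p 0.731).

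**Figure D5:**
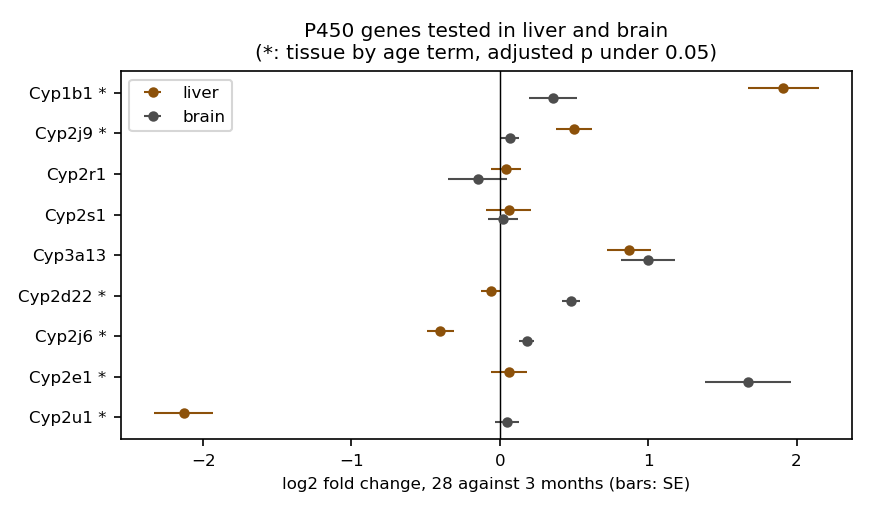
Log2 fold change between 28 and 3 months in liver (brown) and brain (grey) for the 9 P450 genes tested in both tissues, with bars for the standard error; a star marks genes whose tissue by age term had an adjusted p under 0.05 (6 genes). Cyp2u1 lies at -2.13 in the liver and 0.05 in the brain, and Cyp3a13 near 1 in both.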

How the data were processed

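Polyadenylated RNA of 83 livers and 82 brains was compared by age. The authors deposited raw read counts per gene, 1 table per tissue. Per the submitters' processing notes, cutadapt 2.8, HISAT2 2.1.0, SAMtools 1.9 and featureCounts of Subread 2.0.1 were used with GRCm38.p6; the annotation, the strand setting and the treatment of reads matching several genes are not given in the sources used here. Genes were filtered with filterByExpr (count minimum 10), scaled by TMM and tested with edgeR 4.0.16 (quasi-likelihood, R 4.3.3) in a model of age and prep over all livers, with Benjamini-Hochberg adjustment over all tested genes and a threshold of 0.05. Standard errors are the log2 fold change divided by the root of F. CPM used TMM library sizes, and lengths and positions came from GENCODE release M21 (GRCm38). Promoters came from RefSeq.

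Named members were those changed at least 2-fold between 3 and 28 months, the most abundant and the least changed of each subfamily, the 3 highest and 3 lowest called at the later steps, and those called in the brain or between tissues; other lists named up to 2 genes each way. Further members are named to account for all of them, after their values were seen. Members and lists were chosen with earlier results of these data known. At 5823039 to 57490197 counts per liver, members at or under the floor of 3 counts in a library were not read as expressed. No pair of livers agreed within counting noise. Same-numbered livers of different ages did not deviate together (median r 0.00 over 161 pairs), so numbers pair no livers across ages; a brain and a liver of the same age and number carry one mouse name. Alternatives were DESeq2 1.42.0, limma 3.58.1 voom, other scalings and filters, single preps, a clock score, and leaving out livers. The result of 1 gene that the naming rule covers is not reported here.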

Additional observations from a re-analysis of the deposited data

Results flagged for a closer look

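A difference between liver and brain in the change from 3 to 28 months, by a test of that difference itself (edgeR quasi-likelihood, Benjamini-Hochberg adjustment), brought out 6 members. Liver minus brain on the log2 scale, it was -2.13 for Cyp2u1 (adjusted p 3.4e-16), 1.58 for Cyp1b1 (9.1e-07), -1.53 for Cyp2e1 (3.2e-06), -0.55 for Cyp2j6 (7.0e-06), -0.50 for Cyp2d22 (3.0e-06) and 0.47 for Cyp2j9 (0.00171). Cyp2j6 fell in the liver, by 0.40, and rose in the brain, by 0.18. In limma voom with a term for each mouse these differences were -2.07, 1.51, -1.46, -0.50, -0.51 and 0.46, and the same 6 were called.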

How the results depend on the processing

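Between 3 and 28 months 30 members were called, and 28 to 31 when single livers were left out. The same range was 0 to 2 for 3 against 9 months, 0 to 4 for 3 against 15, 18 to 22 for 3 against 24, 11 to 16 for 15 against 24, 19 to 21 for 24 against 28, 0 to 0 for 9 against 15 months and 30 to 31 over all ages. Between 3 and 9 months, where none was called, 1 was without prep as a term, with the clock score, with the replicate block, with the compared ages alone and in DESeq2, and 2 in limma voom. Between 3 and 15 months, where 3 were called, 1 was with RLE factors, without a filter or with a mean of at least 1 CPM, 0 in each prep alone and 8 in limma voom. Single preps have fewer livers: preps 1 and 2 called 3 and 8 members for 24 against 3 months, preps 1 to 3 called 0, 2 and 3 for 24 against 15 and 10, 0 and 7 for 28 against 24, and prep 2 called 15 over all ages. The clock score left 4 between 24 and 28 months, and with the compared ages alone 15 were called there. Without a filter the brain count was 11, from more genes tested. Counts in this section without a share of all genes, here or above, describe the members only and cannot be set against all genes. Unless stated, the cause was not tested.

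Some log2 fold changes between 3 and 28 months turned sign, among them Cyp2d12 and Cyp3a44 in single preps, given above. Of those that follow, Cyp2d26 and Blvra had been called. With the clock score Cyp2a12 was at -0.06, Cyp2d26 at -0.02, Cyp2e1 at -0.29, Cyp2r1 at -0.03 and Cyp3a25 at -0.11. In prep 1 Cyp2d22 was at 0.02, Cyp2r1 at -0.18, Cyp2s1 at -0.07 and Cyp3a25 at -0.09. In prep 2 Cyp2a12 was at -0.09, Cyp2b10 at -0.04, Cyp2c70 at -0.07, Cyp2r1 at -0.10 and Blvra at -0.08, and in prep 3 Cyp2e1 was at -0.32. In limma voom Cyp2b10 was at -0.01 and Cyp2r1 at -0.09. Without 3 months replicate 10, 3 months replicate 16 or 28 months replicate 15, Cyp2r1 was at -0.03, -0.02 and -0.00, and over all such fits it ran from -0.03 to 0.07.

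With the replicate number as a block, 30 members were called between 3 and 28 months (29 the same), 11 for the step from 15 to 24 months, 19 for that from 24 to 28, and Cyp2e1 was at -0.01; of 83 livers 1 was most like one of its own number. The edgeR fit of the tissue difference with a term per mouse was not run; limma voom with that pairing, chosen after seeing the data, called 6 members. Members near the floor are limited by depth.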
